A study of Mus musculus with 8 samples.

Results

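The genes of oxidative phosphorylation (OXPHOS) were examined in sorted Paneth cells. A gene was a member if it is protein-coding and its GENCODE mouse symbol starts with mt-Nd, mt-Co, mt-Cyt, mt-Atp, Uqcr or Atp5, with Cox and a digit from 4 to 8, or with Nduf followed by a, b, c, s or v and a digit, or if it is Sdha, Sdhb, Sdhc or Sdhd. This rule found 102 members among the 55414 gene IDs of the count table, of which 13 are encoded by the mitochondrial genome and 89 by nuclear chromosomes. The rule uses gene symbols and no measured value, although it was set with earlier results of these data known.

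RNA-seq had been performed on Paneth cells that were purified by FACS from mouse small intestine, in 4 libraries from wild type mice (WT-1 to WT-4) and 4 libraries of the genotype DT TG (TG-1 to TG-4), in which diphtheria toxin is expressed in Paneth cells. The series is titled as a profile of purified cells after depletion of (mature) Paneth cells. Diphtheria toxin blocks protein synthesis by inactivating an elongation factor. The sources used here do not give the promoter that drives the toxin or the age of the mice. The study describes its samples as coming from single mice, but the labels do not say so of each replicate, and p-values therefore measure the spread between these libraries, which may be technical. Y-linked genes had counts only in replicates 3 and 4 of each group, so the libraries of a group were not all from the same mouse.

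Oxidative phosphorylation couples the oxidation of NADH and succinate to the synthesis of ATP in the inner mitochondrial membrane. Complexes I, III and IV pump protons, complex II feeds electrons from succinate, and complex V, the ATP synthase, uses the proton gradient. Complex II is built from nuclear encoded subunits alone, while the other complexes hold subunits from both genomes, and the mitochondrial genes are transcribed as long polycistronic RNAs by a polymerase of their own. Paneth cells are known as secretory cells that make antimicrobial proteins in bulk and rely more on glycolysis than the stem cells beside them.

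The deposited counts covered the mitochondrial genome unevenly. A run of 6 members, mt-Co2, mt-Atp8, mt-Atp6, mt-Co3, mt-Nd3 and mt-Nd4l, lies side by side on the genome. Of these, 5 had 0 counts in all 8 libraries, and mt-Nd3 had 3 counts in all. A count of 0 allows at most 3 counts per library, which is 0.185 to 0.229 CPM at these depths, and this limit covers counting error only. The 7 other members had 134 counts (mt-Nd6) to 479680 counts (mt-Co1) over the 8 libraries.

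The members at 0 share their whole sequence with nuclear DNA. In the GRCm39 assembly, bases 6394 to 11042 of the mitochondrial chromosome, a stretch of 4649 bases, recur on the minus strand of chromosome 1 at positions 24650616 to 24655265 with 2 differences (99.957% identical). The stretch begins inside mt-Co1 and ends inside mt-Nd4, so that all 6 members between them lie in it in full. Both edges of the copy are shown, since they separate the part of mt-Co1 and of mt-Nd4 that is shared with this copy from the rest. Part of mt-Co1 also recurs on chromosome 2. Letters in capitals also occur in the copy on chromosome 1, lower case letters do not, and both sequences are on the plus strand of the mitochondrial chromosome, at chrM:6334-6453 within mt-Co1 and at chrM:10983-11102 within mt-Nd4 (GRCm39).
mt-Co1: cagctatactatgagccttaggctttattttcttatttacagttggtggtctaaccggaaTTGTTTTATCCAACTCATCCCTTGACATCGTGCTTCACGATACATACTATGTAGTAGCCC
mt-Nd4: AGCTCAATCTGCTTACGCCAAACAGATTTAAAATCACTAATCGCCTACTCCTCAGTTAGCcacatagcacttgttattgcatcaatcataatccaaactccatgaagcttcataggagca

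Each member transcript was divided into all of its windows of 75 bases, and the share of windows that occur nowhere else in the genome was computed. This share was 0 for mt-Co2, mt-Atp8, mt-Atp6, mt-Co3 and mt-Nd4l, and 1.09% for mt-Nd3. It was 38.5% for mt-Nd4, which has 502 of its 1378 bases outside the copy, and 60.2% for mt-Co1, which has 1066 of 1545 outside. It was 94.3% for mt-Nd2, 98.3% for mt-Nd5 and 100% for mt-Nd1, mt-Nd6 and mt-Cytb. Of the mt-Co1 windows, 220 recur on chromosome 2, so the share of mt-Co1 does not rest on the chromosome 1 copy alone. The 7 annotated pseudogenes of the copy held 10 to 24 counts per library in total. The study gives an average read length over its RNA-seq data sets, not for these libraries, and the handling of reads with several alignments is not stated in the sources used here. The counts are per gene, and whether multiply aligned reads were dropped was not tested.

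**Figure D1:**
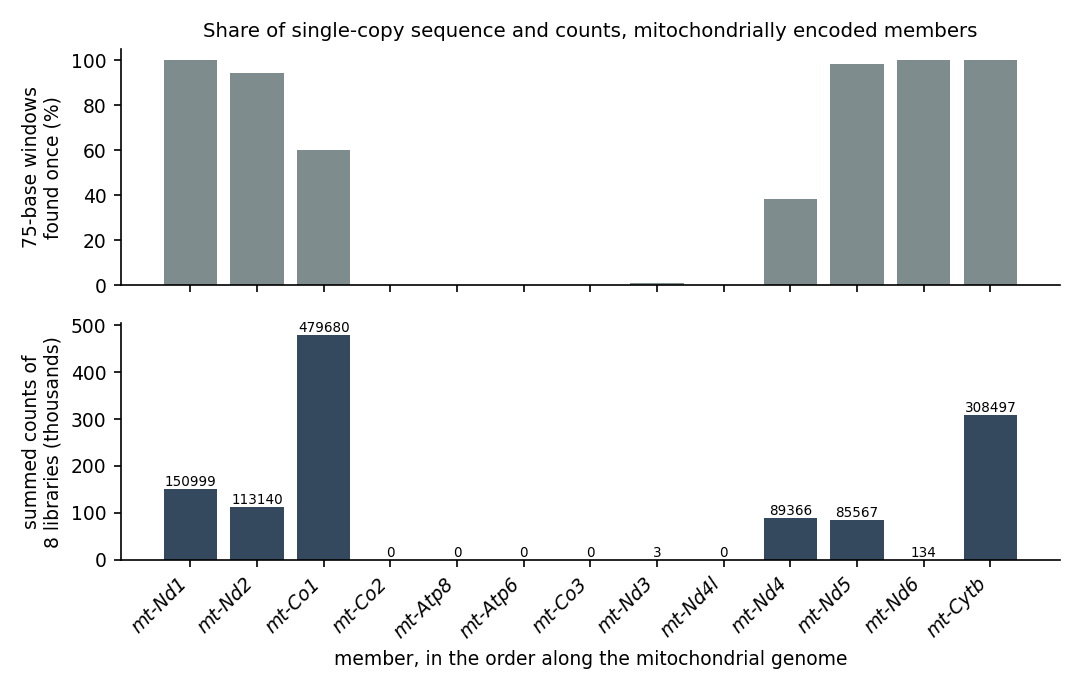
Upper bars give the share of 75-base windows (percent) of each mitochondrially encoded member that occur once in the genome, and lower bars give its counts summed over the 8 libraries (scaled axis, with the count itself printed above each bar). The 6 neighbours from mt-Co2 to mt-Nd4l have a share of at most 1.09% and at most 3 counts, while mt-Co1 has 479680.

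Levels of the mitochondrially encoded members were compared per length. Per kilobase of transcript, mt-Co1, the catalytic core of complex IV, was the highest of the tested members. It had 3205 ± 588 normalized CPM in TG and 2107 ± 618 in WT (n = 4 each, SD). Next came mt-Cytb, the core of complex III, with 2750 ± 413 in TG and 1862 ± 545 in WT, then mt-Nd1, a membrane subunit of complex I, with 1584 ± 307 and 1114 ± 275. On this scale mt-Nd4, another proton-pumping subunit of complex I, had 665 ± 118 in TG and 446 ± 138 in WT. Per kilobase of windows that occur once, mt-Nd4 stood at 1826 in TG and 1224 in WT, close to the 1717 and 1207 of mt-Nd1. On that scale mt-Co1 stood at 5595 in TG and 3679 in WT.

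The first question was whether the mitochondrially encoded members differed between TG and WT. They were higher in TG in the fit, with 3 of the 7 tested members called, namely mt-Nd5, mt-Co1 and mt-Cytb (42.9%). Over all 11929 genes tested, 8.26% were called higher. A gene is called here when edgeR's quasi-likelihood test gives a Benjamini-Hochberg adjusted p below 0.05 over all genes tested. None of the 7 was called lower, with 0 at an unadjusted p under 0.05 in that direction, and DESeq2 and limma voom also called 0 lower. The 6 members left out had too few counts to test.

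mt-Nd5 encodes a proton-pumping subunit of complex I. Its normalized CPM was 802, 743, 893 and 1056 in TG-1 to TG-4, and 440, 525, 554 and 824 in WT-1 to WT-4. WT-1, WT-2 and WT-3 lay below all TG libraries, and WT-4 lay above TG-1 and TG-2. Its log2 fold change of 0.58 ± 0.18 (SE) had an edgeR adjusted p of 0.0411.

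mt-Co1 again had WT-4 as its highest WT library. It had 4219, 4459, 4875 and 6253 normalized CPM in TG-1 to TG-4 against 2518, 2932, 2913 and 4660 in WT-1 to WT-4. The groups overlapped through WT-4 alone, and the log2 fold change was 0.60 ± 0.19 (SE, edgeR adjusted p = 0.0415).

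For mt-Cytb, the libraries TG-1 to TG-4 held 2853, 2830, 3065 and 3836 normalized CPM and WT-1 to WT-4 held 1663, 1950, 1860 and 3049. The log2 fold change was 0.56 ± 0.18 (SE, edgeR adjusted p = 0.0445). Here too WT-4 stood within the range of TG, and the other WT libraries stood below it.

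The other complex I members of the mitochondrial genome did not pass the threshold. mt-Nd1 had 1332, 1256, 1567 and 1909 normalized CPM in TG and 875, 954, 979 and 1455 in WT, a log2 fold change of 0.51 ± 0.17 (SE, edgeR adjusted p = 0.0552). mt-Nd4 had 799, 832, 880 and 1155 in TG and 475, 565, 525 and 893 in WT, with 0.58 ± 0.19 (SE, edgeR adjusted p = 0.0559). For mt-Nd2 the values were 972, 970, 1079 and 1407 in TG and 649, 755, 735 and 1200 in WT, with 0.41 ± 0.19 (SE, edgeR adjusted p = 0.149).

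These 6 members had a common pattern over the libraries. In all 6, WT-1, WT-2 and WT-3 lay below every TG library, WT-4 lay above TG-1 and TG-2, WT-1 was the lowest library of WT and TG-4 the highest of TG. In no tested mitochondrially encoded member were the groups free of overlap, against 10.0% of all tested genes with TG above WT without overlap. mt-Nd6 is the member encoded on the opposite strand of the mitochondrial genome, and it had only 8 to 33 counts per library. Its normalized CPM was 0.563, 0.984, 1.86 and 1.44 in TG and 0.639, 1.18, 0.802 and 1.64 in WT, a log2 fold change of 0.19 ± 0.40 (SE, edgeR adjusted p = 0.776), and a difference was not detectable at this depth. The fitted direction of mt-Nd6 turned with limma voom (-0.12), in the libraries without Y-linked counts (-0.26) and without TG-3 (-0.12).

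**Figure D2:**
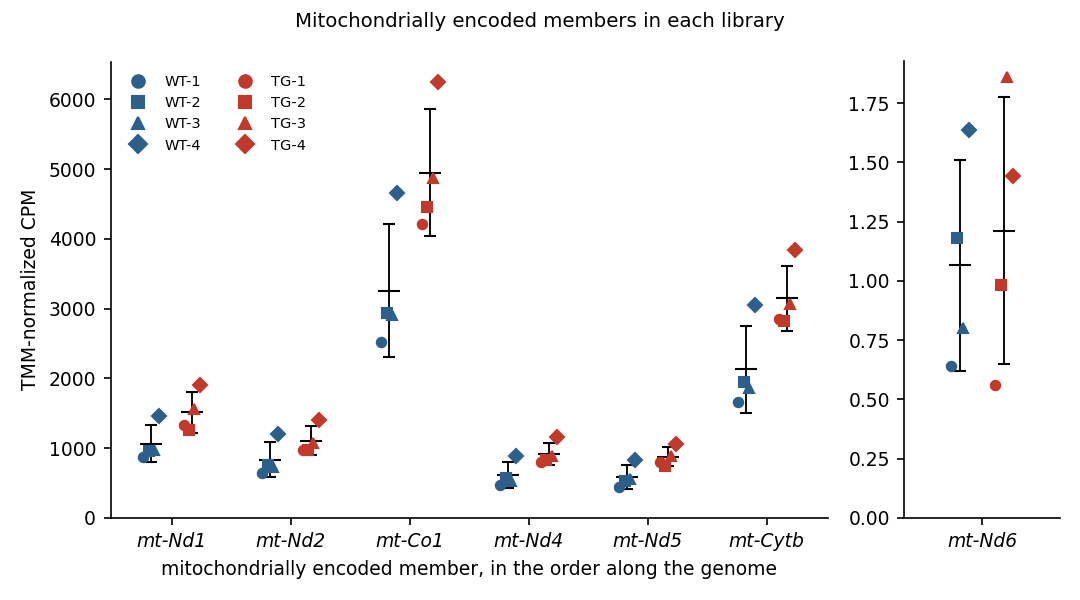
Normalized CPM (linear axes) of the 7 tested mitochondrially encoded members, one symbol per library, blue for WT and red for TG, with black lines for the mean ± SD of 4 libraries, and mt-Nd6 has an axis of its own. In each of the other 6 members WT-4 lies above TG-1 and TG-2, and the remaining WT libraries lie below all of TG.

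The 3 calls were sensitive to single libraries. All 3 were lost when TG-1, TG-2, TG-3, TG-4, WT-1, WT-2 or WT-3 was left out, with the lowest adjusted p among the mitochondrially encoded members between 0.0600 and 0.0968 in those edgeR fits. Without WT-4, 6 of the 7 were called, with a median log2 fold change of 0.78 against 0.56 in all libraries. The limma voom fit called none of them (lowest adjusted p 0.0573), and DESeq2 called 4. Over all 22 alternative fits the log2 fold change ranged from 0.47 to 0.83 for mt-Co1, from 0.46 to 0.78 for mt-Nd5 and from 0.45 to 0.78 for mt-Cytb, with adjusted p from 1.39e-05 to 0.331, from 6.30e-06 to 0.222 and from 3.57e-05 to 0.365.

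The ribosomal RNAs of the mitochondrial genome, which are no members, were given as levels. mt-Rnr1, the small subunit RNA, had 29.3, 42.0, 55.9 and 79.1 normalized CPM in TG and 17.5, 26.0, 26.1 and 61.9 in WT. mt-Rnr2, the large subunit RNA, had 82.8, 87.5, 104 and 152 in TG and 61.6, 73.5, 79.3 and 134 in WT. As in the tested protein-coding members other than mt-Nd6, WT-4 was the highest WT library and TG-4 the highest TG library. The mitochondrial transfer RNAs had 6 to 32 counts per library in all. The libraries were made with a kit that selects poly(A) RNA, and how well each of these RNAs is captured was not tested.

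The nuclear encoded members were examined in the same fit. Of the 89, 80 were tested, and 5 were called lower in TG (6.25%), against 9.65% of all tested genes. The share of called nuclear members was thus below that of all genes in this fit, and these calls are no result about the members as a list. None was called higher, with 0 at an unadjusted p under 0.05 in that direction against 24 lower, and DESeq2 and limma voom called 0 higher and 6 and 10 lower. Of all 11929 genes tested, 1909 were higher and 2034 lower at that unadjusted p. DESeq2 and limma voom called 1288 and 1311 of all genes lower, and with limma voom the share of the members was not below that of all genes. The fitted change was below 0 for 72 of the 80 (90.0%), against 48.7% of all tested genes. Their median log2 fold change was -0.15, that of all genes was 0.01, and that of the mitochondrially encoded members was 0.56.

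The scaling of the libraries moved these values together. When libraries were scaled by their totals, without TMM factors, the median of all genes was 0.12, an upward shift of over 0.1. Under that scaling the nuclear members had a median of -0.03, with 51 of 80 below 0 and 0 called, and the mitochondrially encoded members had 0.68 with 5 called. Relative to the median of all genes, the nuclear members stood at -0.16 under either scaling and the mitochondrially encoded members at 0.55 and 0.55. With TMM factors 46.1% of all calls were higher in TG, and with total counts 75%.

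**Figure D3:**
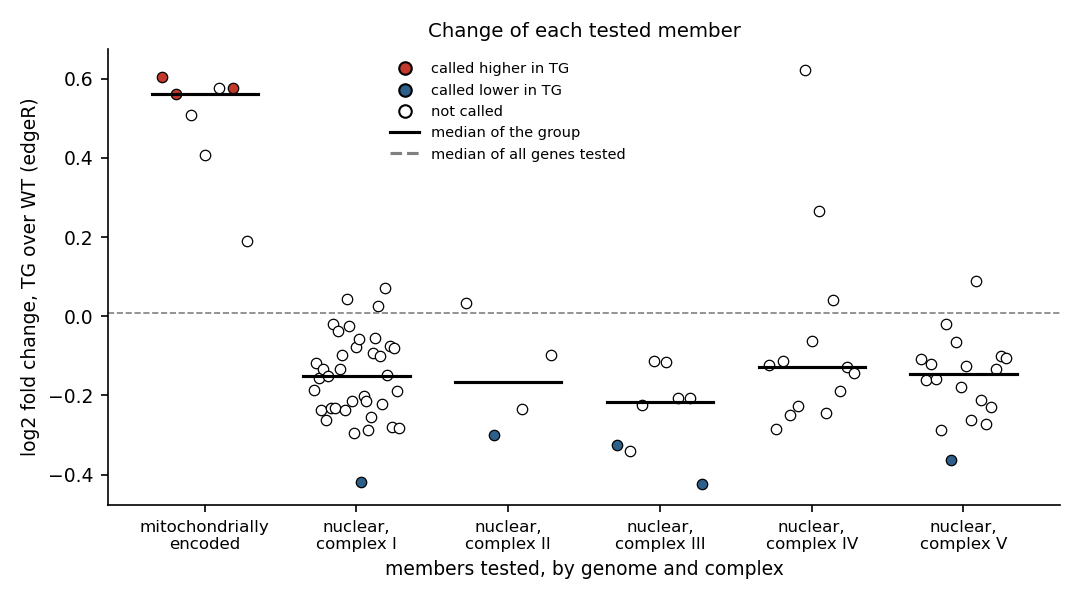
Log2 fold change (TG over WT, edgeR) of the 87 tested members, by genome and, for nuclear members, by complex, where each circle is a gene, filled where called, black bars are group medians and the dashed line is the median of all genes tested (0.01). The 7 mitochondrially encoded members lie between 0.19 and 0.60, while 72 of the 80 nuclear members lie below 0.

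The called nuclear members came from 4 of the 5 complexes. On GRCm39 they lie at chr11:53318749-53322047 (Uqcrq, minus strand), chr11:4651968-4654653 (Uqcr10, minus), chr11:95959678-95966757 (Atp5mc1, minus), chr4:40270581-40279468 (Ndufb6, minus) and chr4:140688502-140709380 (Sdhb, plus). Complex III, which passes electrons from ubiquinol to cytochrome c, had 2 of 8 tested members called lower and a median log2 fold change of -0.22, with all 8 below 0, against 9.65% of all tested genes called lower and 48.7% below 0. The strongest of them was Uqcrq, a small accessory subunit. Its normalized CPM was 51.9, 50.5, 57.2 and 62.6 in TG and 87.8, 63.0, 77.0 and 70.6 in WT. All 4 TG libraries lay below all 4 WT libraries, though TG-4 and WT-2 nearly met. The fitted log2 change was -0.42 ± 0.11 (SE, edgeR adjusted p = 0.0155). Groups without overlap, TG below WT, occurred in 8 of the 80 nuclear members (10.0%), against 12.0% of all tested genes.

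Uqcr10, another small subunit of complex III and its most abundant nuclear member per kilobase, had 42.0, 43.2, 50.6 and 49.5 normalized CPM in TG and 64.8, 48.4, 61.8 and 57.2 in WT. WT-2 lay below TG-3 and TG-4, so the groups overlapped. Its log2 fold change was -0.33 ± 0.10 (SE, edgeR adjusted p = 0.0412). Among the other 6, the core proteins Uqcrc1 and Uqcrc2 had -0.11 and -0.12, and the Rieske iron-sulfur protein Uqcrfs1 had -0.21 (edgeR adjusted p of 0.474, 0.397 and 0.113).

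In complex V, 1 of 18 tested members was called lower, against 9.65% of all tested genes. Atp5mc1 is 1 of 3 members (with Atp5mc2 and Atp5mc3) that encode the same mature subunit c of the rotating ring. It had 35.3, 33.3, 40.5 and 38.7 normalized CPM in TG and 46.8, 41.4, 51.2 and 50.6 in WT, and all TG libraries lay below all WT libraries. The change was estimated at a log2 value of -0.36 ± 0.10 (SE, edgeR adjusted p = 0.0195). Only 23.6% of its windows occur once in the genome, and its copy on chromosome 11, the pseudogene Gm10039, held 11 counts over all libraries, so its level is uncertain. Atp5mc3, with all windows single, had -0.18 ± 0.10 (SE, edgeR adjusted p = 0.219) and Atp5mc2, with 12.0% single windows, -0.07 ± 0.11 (SE, edgeR adjusted p = 0.725).

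Atp5f1b, the catalytic beta subunit, was the most abundant nuclear member per kilobase, with 308 ± 18.0 normalized CPM in TG and 345 ± 35.3 in WT. Its log2 fold change was -0.16 ± 0.10 (SE, edgeR adjusted p = 0.288), and its libraries overlapped. Atp5if1, the inhibitor that stops the ATP synthase from running backwards, had 33.7, 37.5, 43.9 and 37.7 normalized CPM in TG and 38.97, 31.9, 46.2 and 38.0 in WT. A difference was not detected (log2 fold change -0.02 ± 0.11, SE, edgeR adjusted p = 0.922).

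Complex I holds the most nuclear members, 37 tested, of which 1 was called lower and 34 had a fitted change below 0 (median -0.15). Among all tested genes, 9.65% were called lower and 48.7% were below 0. Ndufb6, an accessory subunit of the membrane arm, had 14.6, 13.2, 17.7 and 17.1 normalized CPM in TG and 22.9, 18.8, 20.6 and 21.6 in WT. TG-3 was the highest of TG and still lay below WT-2, the lowest of WT. Its log2 fold change was -0.42 ± 0.11 (SE, edgeR adjusted p = 0.0221). The most abundant member named for complex I was Ndufa4, which is found in complex IV, with 152 ± 14.5 normalized CPM per kilobase in TG and 179 ± 12.9 in WT and a log2 fold change of -0.23 ± 0.09 (SE, edgeR adjusted p = 0.0932).

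By family, the 13 tested Ndufa members had a median log2 fold change of -0.15, the 11 Ndufb members -0.21, the 8 Ndufs members -0.09, and the 3 Ndufv members, among which Ndufv1 holds the NADH site, -0.19. Ndufb3, Ndufb9 and Ndufa6 had TG below WT without overlap and edgeR adjusted p of 0.0596, 0.0502 and 0.0903. Ndufs1, the largest subunit of the matrix arm, had -0.06 ± 0.08 (SE, edgeR adjusted p = 0.672).

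Complex II, succinate dehydrogenase, had 4 tested members. Sdhb, the iron-sulfur subunit, had 51.1, 49.1, 58.7 and 52.8 normalized CPM in TG and 72.6, 59.3, 63.9 and 65.0 in WT. The groups did not overlap, with TG-3 just below WT-2. A log2 fold change of -0.30 ± 0.09 was fitted (SE, edgeR adjusted p = 0.0330). Sdha, the flavoprotein subunit, had 0.03 ± 0.09 (SE, edgeR adjusted p = 0.824), while the membrane anchors Sdhc and Sdhd had -0.24 ± 0.10 and -0.10 ± 0.09 (SE, edgeR adjusted p of 0.126 and 0.456). Sdhd was the most abundant per kilobase, with 62.1 ± 2.63 normalized CPM in TG and 66.4 ± 5.85 in WT.

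Complex IV, cytochrome c oxidase, had 13 of 19 nuclear members tested and none called by edgeR or DESeq2, with 4 at an unadjusted p under 0.05, all lower, and 1 called lower by limma voom (Cox7a2). Of all tested genes, edgeR called 9.65% lower. Cox8a, a small structural subunit, was the most abundant per kilobase, with 161 ± 9.75 normalized CPM in TG and 177 ± 18.3 in WT (log2 fold change -0.14 ± 0.09, SE, edgeR adjusted p = 0.291). Cox5a had -0.28 ± 0.10 (SE, edgeR adjusted p = 0.0564).

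Tissue-specific forms of complex IV subunits were nearly absent. Cox4i2, the form linked to lung and low oxygen, Cox6a2 and Cox8b of heart and skeletal muscle, and Cox7b2 and Cox8c of testis had 0 counts in all 8 libraries, where the common forms Cox4i1, Cox6a1, Cox7b and Cox8a had 65.5 to 161 normalized CPM per kilobase in TG. Cox6b2, the testis form, had 5 to 24 counts per library and 1.80 and 1.17 normalized CPM per kilobase in TG and WT, against 102 and 119 for Cox6b1. Cox7a1, the muscle form, had 16 to 34 counts and 4.07 and 3.38 per kilobase, against 47.8 and 56.7 for Cox7a2.

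**Figure D4:**
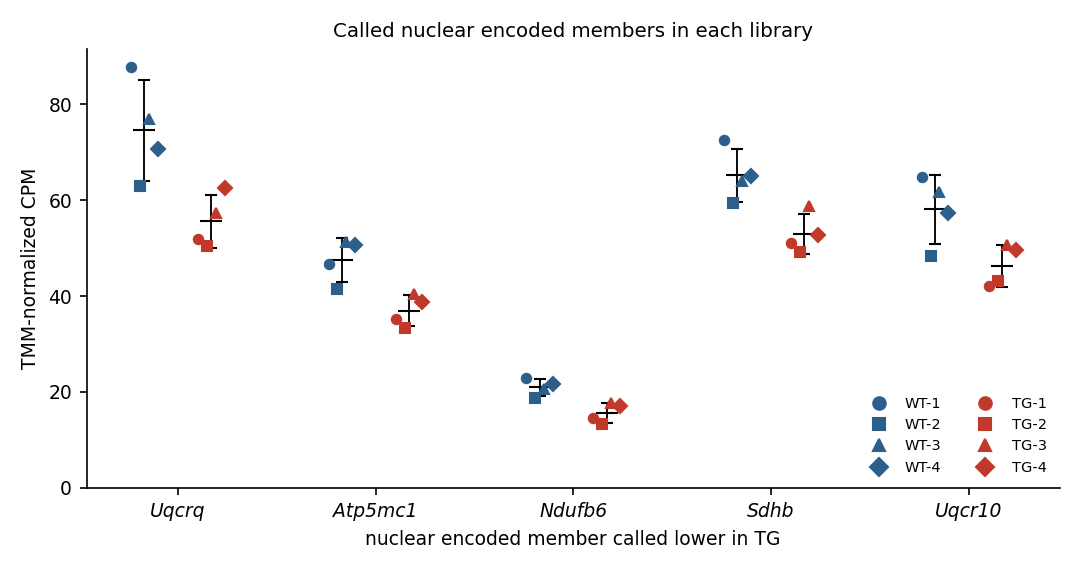
Normalized CPM (linear axis from 0) of the 5 nuclear encoded members called lower in TG, one symbol per library, blue for WT and red for TG, with black lines for the mean ± SD of 4 libraries. The groups are apart in Uqcrq, Atp5mc1, Ndufb6 and Sdhb, and overlap in Uqcr10 through WT-2 (48.4).

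WT-2 was the lowest WT library in 71 of the 80 tested nuclear members. Without it, 24 nuclear members were called lower in TG, with a median log2 fold change of -0.24, where 1183 of the 12119 genes tested in that fit were called lower. Without WT-1, 3 were called, without WT-4, 1 (Uqcrq), and without TG-1 or TG-2, 0, with 10 and 12 at an unadjusted p under 0.05. The calls over all genes also fell without TG-1 or TG-2, as given further below, so this drop was not particular to the members. Uqcrq was called in 6 of the 8 edgeR fits that left out a library, Ndufb6 and Atp5mc1 in 5 and Sdhb and Uqcr10 in 3. Over the 22 alternative fits, adjusted p ranged from 0.000585 to 0.195 for Uqcrq, 0.00498 to 0.246 for Atp5mc1, 0.00559 to 0.322 for Ndufb6, 0.0189 to 0.372 for Sdhb and 0.0133 to 0.321 for Uqcr10.

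Sequence shared with other loci was less common among nuclear members. Of the 89, 66 had at least 95% of their windows found once. The 60 of these that were tested had a median log2 fold change of -0.17, with 4 called lower, against 9.65% of all tested genes. Less than 50% of the windows were single in 5 members, Atp5mc2, Atp5mc1, Cox7c (30.0%), Ndufs5 (31.0%) and Atp5mg (38.2%), whose counts are therefore uncertain. Of the 9 nuclear members that were not tested, 7 had 0 counts in all libraries. These were the 5 complex IV forms above, Ndufb11b and a second gene ID with the symbol Atp5po, while Ndufa4l2 had at most 5 counts and the pseudogene-named Cox5b-ps at most 11.

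Promoter sequences were compared because the called nuclear members moved in one direction. RefSeq promoters of 300 bases, from 250 before to 50 after the transcription start (GRCm38.p6), were found for 68 of the 88 nuclear symbols, 13 of them by an older symbol. Core motifs of factors known to act on nuclear OXPHOS genes were searched on both strands. The NRF-1 core GCGCANGCG was present for 29.4% of the members against 7.03% of all 27025 genes with a promoter. The ETS core CCGGAAG, which the factor GABP binds, was present for 23.5% against 9.93%, the ERR site AAGGTCA for 11.8% against 5.38%, and the YY1 core AAGATGGCG for 10.3% against 1.64%. Any of the 4 was present for 52.9% of the members and 21.2% of all genes, as a description with no test. The members and all genes were not matched for expression or GC content.

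Of the called nuclear members, 4 had a promoter in the table, and 2 of these held a motif, in both cases the ETS core. Both promoters are shown 5′ to 3′ on the strand of the gene, with the motif in capitals, Ndufb6 at chr4:40279372-40279671 on the minus strand and Sdhb at chr4:140961021-140961320 on the plus strand (RefSeq, GRCm38.p6). In Ndufb6 the match is to the reverse strand and begins at position 19 of the window, 232 bases before the start, and in Sdhb it begins at position 257, base 7 of the transcript. No match in the windows of Uqcr10 and Atp5mc1 says only that these letters are not there.
Ndufb6: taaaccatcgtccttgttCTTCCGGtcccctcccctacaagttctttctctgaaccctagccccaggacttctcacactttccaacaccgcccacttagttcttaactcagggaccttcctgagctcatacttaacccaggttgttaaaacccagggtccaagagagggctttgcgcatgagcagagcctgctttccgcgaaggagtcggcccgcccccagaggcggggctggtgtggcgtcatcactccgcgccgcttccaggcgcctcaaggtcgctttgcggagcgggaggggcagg
Sdhb: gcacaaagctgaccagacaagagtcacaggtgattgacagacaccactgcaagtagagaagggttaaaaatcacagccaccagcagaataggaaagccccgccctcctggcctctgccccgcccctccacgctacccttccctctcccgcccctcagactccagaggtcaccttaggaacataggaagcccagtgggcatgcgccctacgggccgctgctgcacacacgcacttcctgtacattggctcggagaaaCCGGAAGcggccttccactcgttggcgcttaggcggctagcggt

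The summed counts of the genomes were then compared, first as shares of all counts of a library, which is a scaling by total counts. The 6 mitochondrially encoded members that were not tested had at most 3 counts in all. The mitochondrial sums therefore rest on the 7 others, of which mt-Co1 and mt-Nd4 lie partly in the copy on chromosome 1, and do not measure all 13. Mitochondrially encoded members held 1.13, 1.20, 1.35 and 1.503% of all counts in TG-1 to TG-4 and 0.560, 0.782, 0.832 and 1.08% in WT-1 to WT-4. They averaged 1.298 ± 0.164% and 0.814 ± 0.215% (SD, n = 4 each), and the groups did not overlap, although TG-1 (95% Wilson interval 1.13 to 1.14%) and WT-4 (1.08 to 1.09%) lay close. The scaling decided this separation. With library sizes scaled by TMM factors, an alternative chosen after seeing the data, the sums were 1.10, 1.11, 1.24 and 1.56% in TG and 0.662, 0.768, 0.757 and 1.21% in WT, and WT-4 lay above TG-1 and TG-2. Nuclear encoded members held 0.442, 0.472, 0.522 and 0.448% in TG and 0.459, 0.439, 0.572 and 0.463% in WT, with means of 0.471 ± 0.0366% and 0.483 ± 0.0602% and overlapping groups. With TMM-scaled library sizes the nuclear sums averaged 0.452% for TG and 0.503% for WT, with overlap through WT-2 (0.431%).

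The ratio of mitochondrially to nuclear encoded counts, which needs no scaling between libraries, was 2.57, 2.55, 2.59 and 3.35 in TG and 1.22, 1.78, 1.46 and 2.34 in WT. All TG libraries lay above all WT libraries, with WT-4 the nearest. On the log2 scale it averaged 1.46 ± 0.193 for TG and 0.721 ± 0.403 for WT (SD, n = 4 each), a difference of 0.74, which was larger than the SD of either group. This difference was between 0.59 and 0.90 when any 1 library was left out, 0.68 in the libraries with Y-linked counts and 0.79 in those without. The mitochondrial sum again rests on the 7 tested members. No test was run on these sums. In bulk RNA, a change in the make-up of the sorted cells and a change of RNA per cell cannot be told apart.

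**Figure D5:**
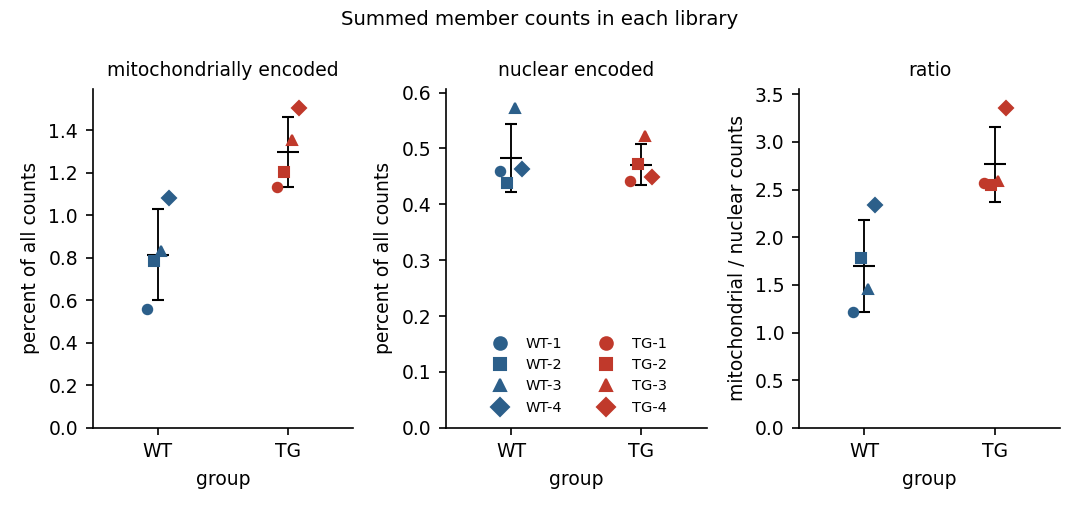
Summed counts of the mitochondrially encoded members (left) and the nuclear encoded members (middle) as percent of all counts of a library, and their ratio (right), on linear axes from 0, with one symbol per library and black lines for the mean ± SD of 4 libraries. TG and WT are apart in the left and right panels, where WT-4 (1.08%, ratio 2.34) is nearest to TG, and overlap in the middle panel. With TMM-scaled library sizes the left panel would overlap, with WT-4 at 1.21% above TG-1 and TG-2. The mitochondrial sums rest on the 7 tested members.

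Markers of other intestinal cells were read in the same libraries. Paneth markers such as Lyz1 and Itln1 were present in all 8 libraries, with a summed level of 229500 to 298900 normalized CPM in TG and 217600 to 308700 in WT, a sum that is mostly Lyz1. Of the 12 Paneth markers 10 were fitted below 0 and 3 were called lower in TG, where 48.7% of all tested genes were below 0 and 9.65% called lower. The called markers were Mptx2 (log2 fold change -1.35 ± 0.20, SE, edgeR adjusted p = 0.00116), Mmp7 (-0.59 ± 0.15, SE, edgeR adjusted p = 0.0179) and Ang4 (-0.57 ± 0.18, SE, edgeR adjusted p = 0.0370). The part of this difference in the results was not tested. Enterocyte markers summed to 825 to 1058 in TG and 712 to 836 in WT, and 4 of their 12 tested genes were called higher in TG, against 8.26% of all tested genes (median log2 fold change 1.58), among them Apob (1.07 ± 0.18, SE, edgeR adjusted p = 0.00310) and Alpi (2.56 ± 0.47, SE, edgeR adjusted p = 0.00463). The enterocyte sums of the groups overlapped and were mostly Anpep (log2 fold change 0.19) and Vil1 (-0.18), which were not called. Vil1 was the only tested enterocyte marker fitted below 0. Without Anpep and Vil1, a split chosen after seeing the data, the other enterocyte markers summed to 122 to 266 in TG and 54.7 to 107 in WT, without overlap. TG-4 had the highest enterocyte sum of TG and WT-4 the highest of WT, the same libraries that had the highest share of mitochondrially encoded counts in each group. No enterocyte marker was at 0 in all libraries, and the part of enterocyte RNA in the results was not tested.

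Goblet markers summed to 4465 to 6838 normalized CPM in TG and 5868 to 6995 in WT, stem cell markers to 2256 to 3122 and 2019 to 2769, and proliferation markers to 303 to 342 and 253 to 389. Among 6 stem cell markers Axin2 (0.52) and Slc12a2 (0.41) were called higher in TG and Smoc2 (-0.35) lower (log2 fold change, edgeR adjusted p of 0.0107, 0.0137 and 0.0139), where 8.26% of all tested genes were called higher and 9.65% lower. Enteroendocrine markers summed to 22.1 to 34.9 and 28.7 to 65.1, with Tac1 called lower (-3.49 ± 0.89, SE, edgeR adjusted p = 0.0287), tuft markers to 14.4 to 46.3 and 16.1 to 31.8, and immune markers to 9.44 to 29.9 and 11.9 to 19.0, with Adgre1 and Csf1r at 0. Total counts were 13107397 to 16218434 per library and TMM factors 0.845 to 1.10. Y-linked genes had counts in replicates 3 and 4 of each group, and not in the others. An interaction of genotype with these counts was called for none of the 87 members (edgeR, lowest adjusted p 0.876, 0 at an unadjusted p under 0.05), where 3 of all 11929 genes were called.

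Other genes of the pathway were taken from fixed lists. Of the mobile electron carriers and subunits outside the rule, Cycs, the somatic cytochrome c, was lower in TG, with 10.4, 10.96, 13.8 and 11.2 normalized CPM against 20.9, 16.4, 19.5 and 19.5 in WT and no overlap (log2 fold change -0.71 ± 0.12, SE, edgeR adjusted p = 0.00191). Etfdh, which passes electrons from fatty acid oxidation to ubiquinone, was higher, with 48.5, 54.9, 43.4 and 46.6 against 36.9, 38.3, 38.0 and 40.3 (0.33 ± 0.09, SE, edgeR adjusted p = 0.0204). These were 2 of 6 genes tested, where 8.26% of all genes were called higher and 9.65% lower.

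The calls among assembly factors of the complexes were read against the 9.65% of all tested genes called lower. For complex I, 1 of 14 was called lower, Ndufaf4 (-0.55 ± 0.12, SE, edgeR adjusted p = 0.00660), and the list had a median of -0.16. For complex IV, 3 of 22 were called lower, among them Cox18, which inserts a mitochondrially encoded subunit into the membrane (-0.65 ± 0.15, SE, edgeR adjusted p = 0.0104), and Coa3 (-0.31 ± 0.09, SE, edgeR adjusted p = 0.0318). The lists for complexes II and III (13 tested) and V (5 tested) had no call with edgeR, DESeq2 or limma voom, and 2 and 0 genes at an unadjusted p under 0.05.

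Subunits of the mitochondrial ribosome, which translates the 13 mitochondrially encoded members, formed the longest list and had the most calls by number, though not by share. Of 77 tested, 17 were called lower in TG, where 9.65% of all tested genes were, and 66 were below 0, with a median log2 fold change of -0.21. Mrps18b had 8, 8.44, 9.98 and 10.1 normalized CPM in TG and 18.7, 14.9, 16.7 and 13.2 in WT (-0.80 ± 0.13, SE, edgeR adjusted p = 0.00195). For Mrpl20 the values were 14.1, 15.7, 16.0 and 14.1 against 22.4, 20.9, 21.2 and 21.0 (-0.51 ± 0.10, SE, edgeR adjusted p = 0.00329). In both genes all TG libraries lay below all WT libraries.

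The genes that act on mitochondrial DNA and RNA held 1 call in each list, against 8.26% of all tested genes called higher and 9.65% called lower. Of 15 tested genes of mitochondrial DNA maintenance and transcription, 1 was called, Mterf2, a member of the transcription termination factor family, which was higher in TG at a low level (1.56 against 0.713 normalized CPM, 1.13 ± 0.36, SE, edgeR adjusted p = 0.0444). Tfam, which packages mitochondrial DNA and starts its transcription, had 30.04 in TG and 29.5 in WT (edgeR adjusted p = 0.877), and the mitochondrial RNA polymerase Polrmt had 18.4 and 17.3 (edgeR adjusted p = 0.552). Of 16 genes of mitochondrial RNA processing, 1 was called, Trmt10c, a subunit of mitochondrial RNase P, which was lower (-0.43 ± 0.10, SE, edgeR adjusted p = 0.0109).

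Of 12 tested regulators of mitochondrial biogenesis, 2 members of the PGC-1 coactivator family were called, in opposite directions, so that 1 of 12 was called in each, close to the 8.26% and 9.65% of all tested genes. Ppargc1a had 2.94, 4.15, 4.17 and 4.71 normalized CPM in TG and 1.44, 2.23, 1.34 and 2.23 in WT, without overlap (1.14 ± 0.25, SE, edgeR adjusted p = 0.00755). Pprc1 had 44.1, 48.7, 57.5 and 53.7 in TG and 65.1, 74.9, 64.9 and 61.3 in WT, also without overlap (-0.38 ± 0.10, SE, edgeR adjusted p = 0.0165). Nrf1, whose core motif was searched above, had 16.0 and 15.9 (edgeR adjusted p = 0.971).

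In the citric acid cycle 3 of 14 genes were called lower, against 9.65% of all tested genes, with Dld (-0.32 ± 0.08, SE, edgeR adjusted p = 0.0172) and Cs, the citrate synthase (-0.33 ± 0.09, SE, edgeR adjusted p = 0.0228), leading. Vdac2, a channel of the outer membrane, was the called gene among 7 carriers and pores (-0.26 ± 0.09, SE, edgeR adjusted p = 0.0498). Clpx, the unfolding partner of a matrix protease, was the called gene among 11 chaperones and proteases (-0.34 ± 0.09, SE, edgeR adjusted p = 0.0225).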

How the data were processed

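Counts per Ensembl gene, in whole numbers, were deposited by the authors in 1 table for the 8 libraries. Per the labels, the libraries were made with a stranded, poly(A)-selecting kit, and the submitters' processing notes name FastQC 0.12.0, STAR 2.7.0a, DESeq2 and the mm39 build. The sources used here name no counting tool, strand setting or handling of multiply aligned reads for this table, and no read length for these libraries alone. Symbols, positions and transcripts came from GENCODE M39 on GRCm39, matching 54749 of 55414 IDs. The other 665 held at most 0.0150% of a library's counts. 0 per-sample columns were left out.

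Counts were tested with edgeR 4.0.16 (R 4.3.3; robust quasi-likelihood, TMM factors, default filter, group as the only term), which left 11929 genes, with adjustment over all of them. SE is the size of the log2 change over the root of F. Normalized CPM uses TMM factors. Intervals cover counting error only. Alternatives used DESeq2 1.42.0, limma 3.58.1 voom, other scalings, filters and terms, and each library left out. The steps were tested on simulated data. Replicates differed beyond sampling noise (chi-square per degree of freedom at least 5.20).

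Members and lists were chosen with earlier results of these data known. Named were all mitochondrially encoded members, in each complex the most abundant nuclear member per length and up to 4 called members per direction with the smallest p, the tissue forms of complex IV, Atp5if1, and of each list the 2 called genes with the smallest p per direction. Other named members were chosen after their values were seen.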

Additional observations from a re-analysis of the deposited data

Results flagged for a closer look

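One value stood apart from the other libraries of its group. The ratio of mitochondrially to nuclear encoded counts was 3.35 in TG-4, while TG-1, TG-2 and TG-3 lay between 2.55 and 2.59, so that 0.951 of the range of the group lay between TG-4 and its neighbour, which is beyond Dixon's 95% critical value for 4 libraries. TG-4 also had the highest enterocyte marker sum, 1058 normalized CPM against 825 to 889 in the other TG libraries. Its Paneth sum (298900 against 229500 to 250400) and goblet sum (6838 against 4465 to 5766) were the highest of TG as well. The part of any of these cells in the ratio was not tested. Without TG-4 the log2 ratio was 0.64 higher in TG than in WT, against 0.74 with it. Of 40 groups examined in this way, chance would give about 2, or 1 in 20.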

How the results depend on the processing

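Calls of mitochondrially encoded members (3 higher) became 5 with total counts or a term for Y-linked counts, 6 with no filter, the replicate block, the GC and length offset or that offset with the block, and 0 with limma voom or in the libraries with Y-linked counts alone. Nuclear members called lower (5) became 10 with limma voom, 9 with no filter, and 0 with total counts and in the libraries with or without Y-linked counts. Without single libraries the ranges were 0 to 6 and 0 to 24. Over all genes, 985 were higher and 1151 lower. With total counts 263 were lower, in the libraries with Y-linked counts 113 and 103, in those without 500 and 638, and without single libraries 485 to 1045 and 553 to 1183 (485 and 570 without TG-2, 533 and 553 without TG-1). Among the members followed by name, fitted directions turned for uncalled ones: mt-Nd6 (voom -0.12, libraries without Y-linked counts -0.26, without TG-3 -0.12), Sdhd (total counts 0.0188) and Atp5if1 (total counts 0.0906, libraries without Y-linked counts 0.0055, offset 0.0057, offset with the block 0.0097, without TG-1 0.04, without WT-3 0.0744). Without single libraries mt-Nd6 ranged from -0.12 to 0.463 and Atp5if1 from -0.106 to 0.0744. Of all 80 nuclear members, 72 were below 0, against 51 with total counts, 69 with the offset and 68 to 75 without single libraries. The causes were not tested. The shares and the log2 ratio moved by less than 1 SD under every alternative, although with TMM-scaled library sizes the mitochondrially encoded shares of the groups overlapped. Replicate numbers did not pair the libraries (correlations of deviations 0.0762, 0.0666, 0.286 and 0.231, with 5 of 8 libraries closest to their own number). With 4 libraries a group and mt-Nd6 at 8 to 33 counts, small changes were not detectable.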

Other observations

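Of the mitochondrially encoded counts, mt-Co1 held 38.0 to 40.2% and mt-Cytb 24.6 to 26.0% over the 8 libraries, with overlapping groups. These are shares of the counts of the 7 tested members, since the other members had next to none. mt-Nd2 is given because its groups did not overlap, and was chosen after its values were seen. Its share was 8.86, 8.74, 8.73 and 9.01% in TG-1 to TG-4 and 9.81, 9.82, 9.71 and 9.93% in WT-1 to WT-4, so that the groups were apart by more than their SD (0.129 and 0.0901 percentage points, n = 4 each). No test was run on this share. Of the windows of mt-Nd2, 94.3% occur once in the genome, and 55 windows recur on chromosome 2.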
